A study of Homo sapiens with 24 samples.

Results

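IGLL1, VPREB1, CD79A, CD79B, BLNK, LCK and IL7R are 7 genes of early lymphoid development that were measured here in 2 human cell lines that the labels call acute myeloid leukaemia (AML). They are 7 of the 23595 genes in the deposited expression tables and were found by gene symbol. The set was chosen by readout: IGLL1, CD79B, LCK and IL7R were selected on their low values under OTX in IMS-M2, so their OTX changes in that line are given below as a description, without a test. The 24 polyA RNA libraries formed 8 groups of 3. IMS-M2 cells were cultured without FA and treated with OTX or DMSO, or cultured with FA and treated with OTX or DMSO, and U937 cells were handled in the same 4 ways. From knowledge of the study rather than from the labels, FA was read as folic acid and OTX as birabresib, a BET bromodomain inhibitor. DMSO was its vehicle. The labels give no dose or treatment time, each line is an established culture (U937 is known as a histiocytic lymphoma line), and whether replicate libraries stem from independent cultures is not stated. The p-values therefore reflect library-to-library spread, which may be technical.

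A developing B cell tests its new heavy chain with the pre-B cell receptor. In that receptor the products of IGLL1 (lambda 5) and VPREB1 form a surrogate light chain, the heterodimer of CD79A and CD79B carries the signal inwards, and the adaptor BLNK passes it from the kinase SYK to BTK and phospholipase C gamma. LCK is the SRC family kinase that starts signalling at the T cell receptor, and IL7R is the alpha chain of the receptor for interleukin 7, the growth factor of early lymphocytes, which it shares with the receptor for TSLP. IGLL1 and VPREB1 are best known from B cell precursors, whereas immature and leukaemic myeloid cells can also carry transcripts of some lymphoid genes.

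The bases just before the start sites are shown because the 7 genes share a role but not a locus: the files place them on 6 chromosomes in hg19. RefSeq promoter windows on GRCh38.p14 were matched by symbol for 6 of the 7 genes. Each line gives the 250 bases before the start site, 5′ to 3′ on the strand of the gene. Capitals mark the ETS-type motif CAGGAAGT or its reverse complement ACTTCCTG.
IGLL1, chr22:23580291-23580540, minus strand: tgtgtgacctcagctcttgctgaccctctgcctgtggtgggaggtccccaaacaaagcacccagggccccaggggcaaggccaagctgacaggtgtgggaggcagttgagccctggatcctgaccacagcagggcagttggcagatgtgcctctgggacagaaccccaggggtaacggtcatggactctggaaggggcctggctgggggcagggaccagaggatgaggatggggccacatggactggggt
CD79A, chr19:41877029-41877278, plus strand: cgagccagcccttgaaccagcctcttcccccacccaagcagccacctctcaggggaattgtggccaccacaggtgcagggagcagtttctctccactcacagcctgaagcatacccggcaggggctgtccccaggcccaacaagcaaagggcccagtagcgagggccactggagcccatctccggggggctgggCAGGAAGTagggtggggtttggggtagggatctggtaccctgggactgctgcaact
LCK upstream start, chr1:32251015-32251264, plus strand: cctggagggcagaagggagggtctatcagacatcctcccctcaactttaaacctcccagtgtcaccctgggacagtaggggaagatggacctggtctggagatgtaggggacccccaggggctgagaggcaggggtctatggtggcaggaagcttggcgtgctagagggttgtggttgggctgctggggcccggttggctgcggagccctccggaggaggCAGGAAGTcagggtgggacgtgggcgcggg
LCK downstream start, chr1:32273871-32274120, plus strand: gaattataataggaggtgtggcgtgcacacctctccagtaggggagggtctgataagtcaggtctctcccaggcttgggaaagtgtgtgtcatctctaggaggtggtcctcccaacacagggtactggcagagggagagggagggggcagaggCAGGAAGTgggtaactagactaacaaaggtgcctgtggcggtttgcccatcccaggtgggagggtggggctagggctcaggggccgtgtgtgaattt
IL7R, chr5:35856641-35856890, plus strand: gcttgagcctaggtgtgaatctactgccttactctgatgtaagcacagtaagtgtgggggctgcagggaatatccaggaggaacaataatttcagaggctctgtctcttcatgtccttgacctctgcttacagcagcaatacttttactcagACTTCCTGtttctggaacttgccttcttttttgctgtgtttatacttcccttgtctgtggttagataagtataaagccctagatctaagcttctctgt
BLNK, chr10:96271570-96271819, minus strand: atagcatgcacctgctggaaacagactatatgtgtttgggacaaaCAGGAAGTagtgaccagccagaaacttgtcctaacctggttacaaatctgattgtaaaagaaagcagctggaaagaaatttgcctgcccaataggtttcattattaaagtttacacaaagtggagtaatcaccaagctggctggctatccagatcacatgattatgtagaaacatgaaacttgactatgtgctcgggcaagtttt
The ETS-type motif lay in the windows of LCK (at both starts), IL7R, BLNK and CD79A, which is 5 of the 7 windows of these genes, and in 2.6% of 35116 windows of the same length. It was not found in the window of IGLL1 or VPREB1. The window of IGLL1 held the E-box CAGNTG at 4 places, and 42.5% of all windows held at least 1. The RUNX-type motif TGTGGT was in 4 of the 7 windows, against 11.0% of all windows, and the palindrome CCCNNGGG was in 3, against 17.1%. Both strands were searched. E-box matches can overlap RUNX-type matches in CD79A. The motifs were picked after the sequences had been seen, and a match describes letters in a window, not a bound site.

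Before the results, the libraries were compared with each other. FPKM (fragments per kilobase of transcript, scaled by the mapped fragments of the library) summed to between 522659 and 644841 per library, and 10418 to 10894 genes reached 1 FPKM. The mean correlation of a library with the other 2 of its group was 0.9909 to 0.9968 on the log2(FPKM + 1) scale, so none stood apart. HEXIM1, a gene that BET inhibitors raise, was higher under OTX in every table, at 40.3 against 9.15 FPKM in IMS-M2 -FA, 37.2 against 6.77 FPKM in IMS-M2 +FA, 40.2 against 9.30 FPKM in U937 -FA, and 25.3 against 10.03 FPKM in U937 +FA. MYC fell by 0.62, 0.47, 3.08 and 2.98 on the log2 scale in the same tables. All 8 of these changes had a limma adjusted p of 0.000169 or less.

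The label of the set names a lineage, and the defining markers of that lineage were looked up. Of 17 B cell markers, 14 were in the tables. MS4A1, POU2AF1, BLK and CR2 were listed at 0 in all 24 libraries, and PAX5 and DNTT, which mark committed and early lymphoid cells, were listed at 0 in all 12 IMS-M2 libraries. CD72 was the only one to reach a mean of 1 FPKM in IMS-M2, at 1.82 FPKM in -FA DMSO and 3.17 FPKM in +FA DMSO. The B cell markers summed to 1.60 to 2.05 FPKM in IMS-M2 -FA OTX libraries and 3.26 to 3.54 FPKM in their DMSO libraries, and to 1.60 to 1.64 and 4.24 to 5.83 FPKM in the OTX and DMSO libraries with folic acid. The 16 T cell markers summed to 2.30 to 3.78 FPKM in IMS-M2 -FA OTX libraries and 8.46 to 10.7 FPKM in their DMSO libraries, and to 1.64 to 2.83 and 10.7 to 13.1 FPKM in the OTX and DMSO libraries with folic acid. CD8A and CD8B were listed at 0 everywhere. CD3E, ZAP70 and LAT averaged 1.505, 1.96 and 5.79 FPKM in IMS-M2 -FA DMSO and 3.265, 3.62 and 3.95 FPKM in IMS-M2 +FA DMSO. The 7 NK cell markers, among which NCAM1 was listed at 0 in every IMS-M2 library, summed to 5.97 to 7.02 FPKM under OTX and 12.9 to 13.5 FPKM under DMSO in IMS-M2 -FA, and to 4.004 to 5.14 and 13.2 to 15.7 FPKM with folic acid. NKG7, PRF1 and NCR1 averaged 5.32, 5.465 and 2.27 FPKM in IMS-M2 -FA DMSO and 5.61, 6.11 and 3.09 FPKM in IMS-M2 +FA DMSO. In U937, B cell markers summed to 3.05 to 4.06 FPKM under OTX and 4.64 to 5.44 FPKM under DMSO, T cell markers (almost all LAT) to 7.73 to 15.7 and 13.8 to 21.9 FPKM, and NK cell markers (mostly NKG7) to 64.9 to 101.2 and 215 to 271 FPKM. Myeloid markers had the highest sums: the 16 summed to 100.6 to 126.6 FPKM under OTX and 261 to 290 FPKM under DMSO in IMS-M2, and to 1914 to 3367 and 3913 to 5474 FPKM in U937. In the IMS-M2 groups, 7 to 9 of the 16 reached a mean of 1 FPKM. ELANE, PRTN3, AZU1, CD14 and CSF3R were among those below it there. These marker sums were lower under OTX, as were most of the 7 genes, and their part in the results below was not tested. In bulk RNA, fewer cells of a type and less RNA per cell cannot be told apart.

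IGLL1 was the most abundant of the set in vehicle-treated IMS-M2 cells and, among the 5 genes that passed the filter there, the lowest under OTX relative to vehicle. In IMS-M2 -FA its level was 0.587, 0.506 and 0.818 FPKM under OTX, against 149, 127 and 143 FPKM under DMSO. In IMS-M2 +FA it was 1.37, 1.39 and 1.56 FPKM under OTX, against 234, 174 and 158 FPKM under DMSO. No OTX library came near a DMSO library. Over all 11223 genes tested in IMS-M2, 30.0% were called lower and 27.5% higher without folic acid, and 33.4% lower and 29.8% higher with it; nothing is read from this comparison, since the gene was selected in it. The OTX mean was 0.457% of the DMSO mean without folic acid and 0.763% with it, and the difference was -6.42 ± 0.13 and -6.26 ± 0.13 on the log2(FPKM + 1) scale (SE from limma). Ranked by FPKM within a library, IGLL1 stood at places 9944 to 10112 in the OTX libraries with folic acid and at places 273 to 511 in their DMSO libraries. The copies IGLL5 and IGLL3P, which resemble IGLL1 and could share its reads, were listed at 0 in all 24 libraries, so how the counting divided such reads is uncertain.

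U937 cells carried far less IGLL1. Without folic acid the level was 0.0420, 0.0406 and 0.0719 FPKM under OTX, against 0.363, 0.536 and 0.123 FPKM under DMSO. The libraries did not overlap, but the log2 difference of -0.34 ± 0.14 did not pass (limma adjusted p = 0.0535). It passed with a pseudocount of 0.1 FPKM (adjusted p = 0.0121), without DMSO column 2 of that group (adjusted p = 0.0131), and without the first U937 +FA DMSO library (adjusted p = 0.0182). With folic acid the level was 0.114, 0.0359 and 0 FPKM under OTX, against 1.38, 2.32 and 2.32 FPKM under DMSO, again without overlap. The log2 difference was -1.502 ± 0.139, with a limma adjusted p of 4.78e-06. IGLL1 passed the filter of a mean of 1 FPKM in U937 only through that DMSO group, so a difference there was built into its being tested. Of all 11194 genes tested in U937, 31.7% were called lower and 28.0% higher without folic acid, and 27.0% lower and 29.1% higher with it.

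Across the 8 groups, from low to high, mean IGLL1 was 0.05005 ± 0.0584 FPKM in U937 +FA OTX, 0.0515 ± 0.0177 in U937 -FA OTX, 0.341 ± 0.208 in U937 -FA DMSO, 0.637 ± 0.162 in IMS-M2 -FA OTX, 1.44 ± 0.106 in IMS-M2 +FA OTX, 2.01 ± 0.540 in U937 +FA DMSO, 139 ± 11.4 in IMS-M2 -FA DMSO and 188 ± 40.2 in IMS-M2 +FA DMSO (SD, n = 3 each). Neighbours in this order overlapped in single libraries at 3 places: between both U937 OTX groups, between U937 -FA DMSO and IMS-M2 -FA OTX, and between IMS-M2 +FA OTX and U937 +FA DMSO. IGLL1 in OTX-treated IMS-M2 cells thus reached levels seen in vehicle-treated U937 cells.

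VPREB1, the partner of IGLL1 in the surrogate light chain, was low in every library. It was listed at 0 in all 6 IMS-M2 OTX libraries. Its DMSO libraries held 0.393, 0.153 and 0.377 FPKM in IMS-M2 -FA and 0.661, 0.937 and 0.926 FPKM in IMS-M2 +FA. In U937 it was listed at 0 in every library but 2 of the -FA DMSO group, at 0.0442 and 0.176 FPKM. VPREB1 did not pass the filter in either line. The 2 transcripts of the surrogate light chain were thus far apart in IMS-M2 DMSO libraries, with IGLL1 at 127 to 234 FPKM and VPREB1 below 1 FPKM.

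**Figure D1:**
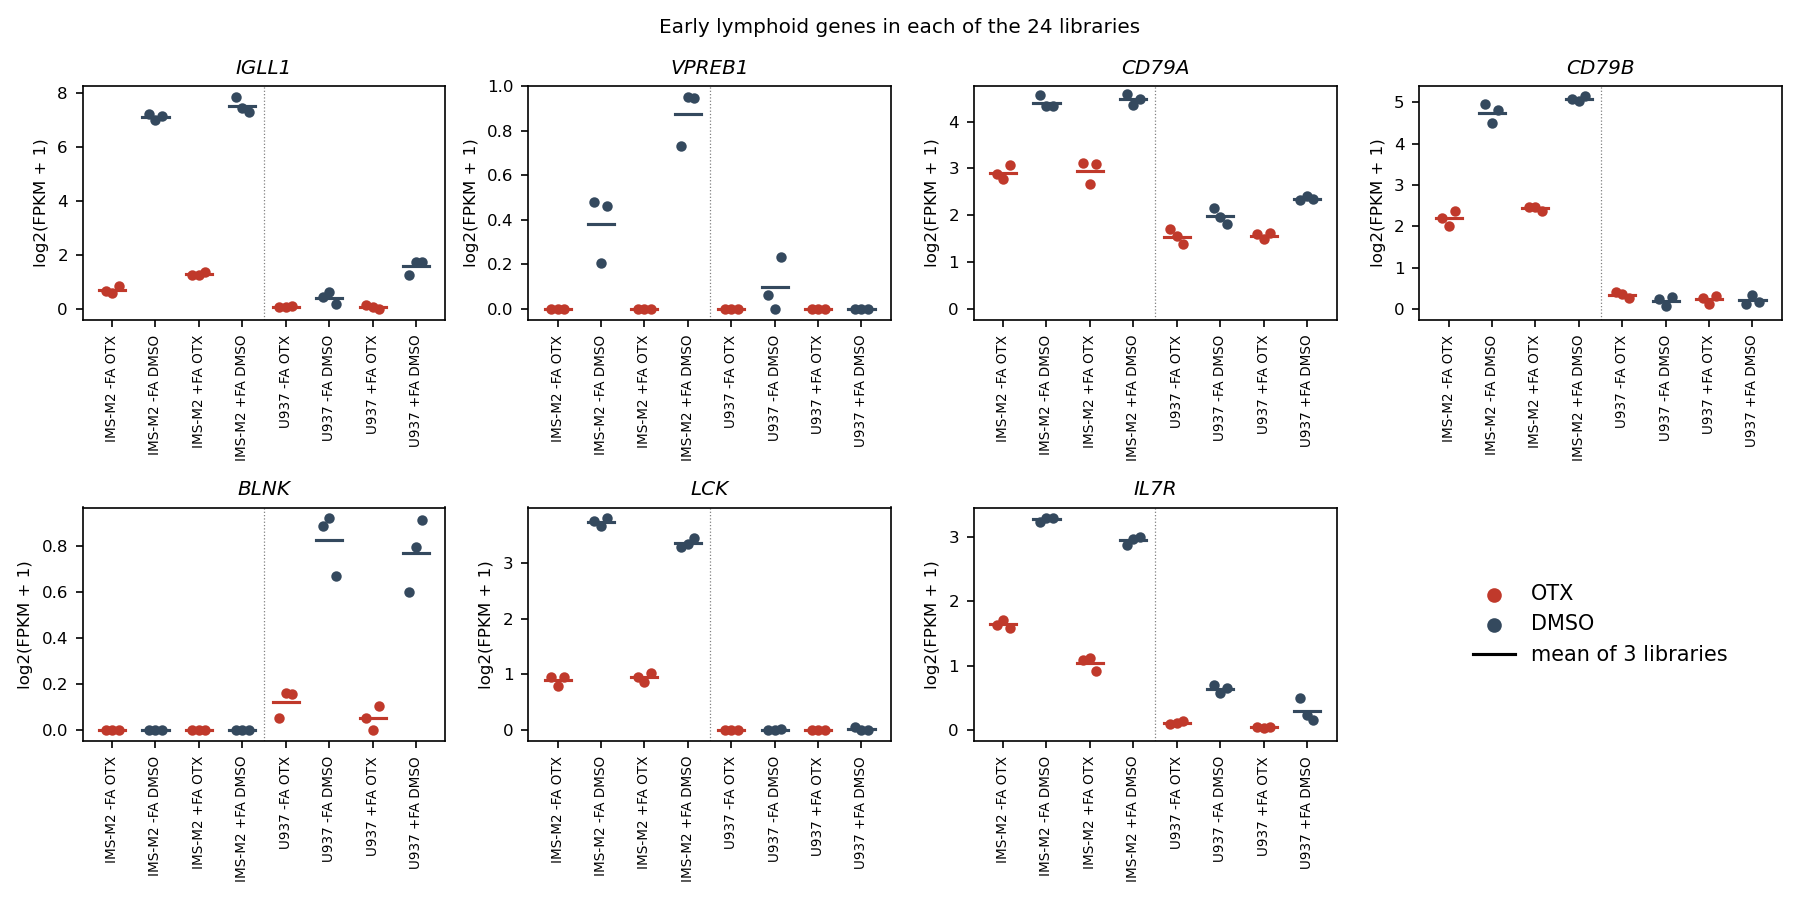
Each point is 1 library and each line the mean of 3, as log2(FPKM + 1) on the vertical axis with its own scale per gene; the groups run along the horizontal axis, OTX in red and DMSO in dark blue. IGLL1, CD79A, CD79B, LCK and IL7R are high in the 6 IMS-M2 DMSO libraries and lower in the 6 OTX libraries, while BLNK appears only in U937.

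CD79A and CD79B, which encode the paired signalling chains, were both lower under OTX in IMS-M2 but not to the same degree. CD79A was 6.34, 5.82 and 7.44 FPKM under OTX, against 22.6, 19.0 and 19.2 FPKM under DMSO, in IMS-M2 -FA. It was 7.63, 5.30 and 7.56 FPKM under OTX, against 23.2, 19.6 and 21.3 FPKM under DMSO, in IMS-M2 +FA. The OTX mean was 32.2% of the DMSO mean without folic acid and 32.0% with it. CD79B was 3.63, 2.999 and 4.18 FPKM under OTX, against 30.0, 21.6 and 27.2 FPKM under DMSO, in IMS-M2 -FA. It was 4.54, 4.51 and 4.13 FPKM under OTX, against 33.2, 31.7 and 34.4 FPKM under DMSO, in IMS-M2 +FA, which left 13.7% and 13.3% of the DMSO mean. Treated and vehicle libraries did not overlap for either gene.

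The order of the 2 chains was the opposite in treated and vehicle IMS-M2 cells. The ratio of CD79A to CD79B, both per length, was 1.75 to 1.94 in IMS-M2 -FA OTX libraries, against 0.706 to 0.883 in DMSO libraries. It was 1.17 to 1.83 in IMS-M2 +FA OTX libraries, against 0.617 to 0.701 in DMSO libraries. CD79A exceeded CD79B in all 6 OTX libraries and CD79B exceeded CD79A in all 6 DMSO libraries. These ratios come from the values that selected CD79B and have no test.

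CD79A was the 1 gene of the set with a level above 1 FPKM in every U937 group, and so the one whose OTX response could be tested outside the line used for selection without the filter deciding it. In U937 -FA it was 2.24, 1.94 and 1.61 FPKM under OTX, against 3.45, 2.91 and 2.50 FPKM under DMSO. In U937 +FA it was 2.01, 1.80 and 2.07 FPKM under OTX, against 3.99, 4.28 and 4.07 FPKM under DMSO. The groups did not overlap in either table. CD79A fell by 0.43 on the log2 scale without folic acid (SE 0.10, limma adjusted p = 0.00326) and by 0.79 with it (SE 0.10, limma adjusted p = 5.48e-05). With 31.7% and 27.0% of all U937 genes called lower, a fall of this kind was common there. CD79B stayed between 0.0545 and 0.333 FPKM in all 12 U937 libraries, OTX and DMSO libraries overlapped, and it did not pass the filter.

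**Figure D2:**
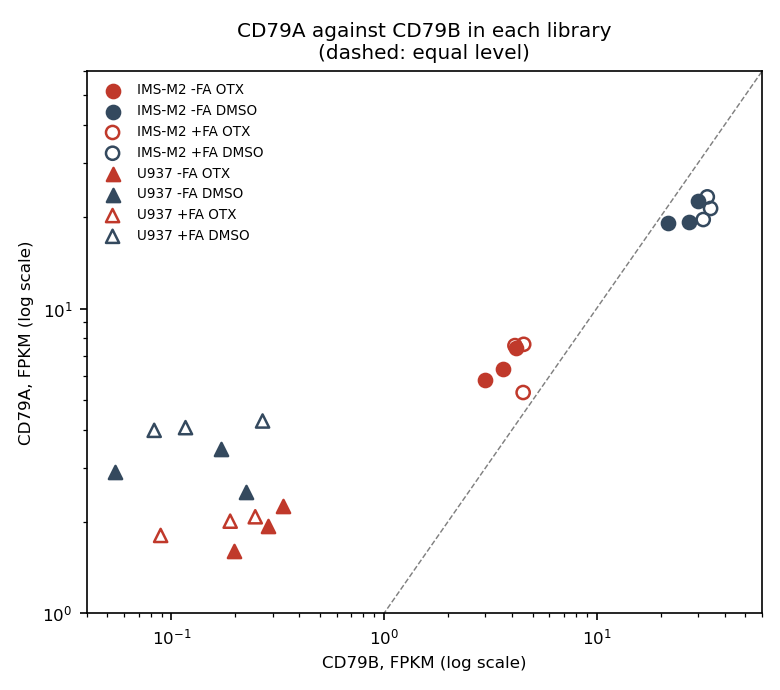
CD79A (vertical axis) against CD79B (horizontal axis) in FPKM, both on log scales, 1 point per library, with equal levels on the dashed line. The IMS-M2 OTX libraries lie above the line and the IMS-M2 DMSO libraries below it, while all U937 libraries lie far to the left with CD79B under 0.34 FPKM.

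BLNK, the adaptor below the receptor, was listed at 0 in all 12 IMS-M2 libraries, so it had no OTX response to describe in that line. It was present at a low level in U937. Without folic acid it was 0.0374, 0.118 and 0.115 FPKM under OTX, against 0.852, 0.897 and 0.592 FPKM under DMSO. With folic acid it was 0.0352, 0 and 0.0748 FPKM under OTX, against 0.516, 0.739 and 0.883 FPKM under DMSO. Every OTX library was below every DMSO library. BLNK was under the filter in every group. In the fit without a filter the log2 differences were -0.70 ± 0.08 and -0.72 ± 0.08, with limma adjusted p of 9.21e-05 and 8.66e-05. Genes under the filter were meant to get values only. The share of all genes called in that fit is not given here, and the share without overlap was not computed. Nothing is read from these p-values or from the lack of overlap.

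LCK was expressed in IMS-M2 and all but missing in U937. In IMS-M2 -FA it was 0.938, 0.741 and 0.937 FPKM under OTX, against 12.5, 11.7 and 13.0 FPKM under DMSO. In IMS-M2 +FA it was 0.945, 0.822 and 1.03 FPKM under OTX, against 8.78, 9.14 and 9.85 FPKM under DMSO. Treated libraries lay far below vehicle libraries in both tables. The OTX means were 7.05% and 10.1% of the DMSO means, with log2 differences of -2.84 ± 0.08 and -2.41 ± 0.08. In U937, LCK was listed at 0 in 10 of 12 libraries and did not exceed 0.0403 FPKM.

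IL7R was lower under OTX in both IMS-M2 tables. In IMS-M2 -FA it was 2.103, 2.26 and 2.013 FPKM under OTX, against 8.42, 8.77 and 8.80 FPKM under DMSO. In IMS-M2 +FA it was 1.12, 1.17 and 0.883 FPKM under OTX, against 6.33, 6.81 and 7.02 FPKM under DMSO. The libraries did not overlap, and 24.5% and 15.7% of the DMSO mean were left. The log2 differences were -1.63 ± 0.07 and -1.91 ± 0.07. In U937, where the gene was under the filter, the level was 0.0682 to 0.109 FPKM under OTX and 0.493 to 0.630 FPKM under DMSO without folic acid. It was 0.0278 to 0.0369 FPKM under OTX and 0.115 to 0.411 FPKM under DMSO with folic acid. Without a filter these low values gave log2 differences of -0.52 (limma adjusted p = 0.000208) and -0.25 (limma adjusted p = 0.0173). As for BLNK, nothing is read from these p-values.

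**Figure D3:**
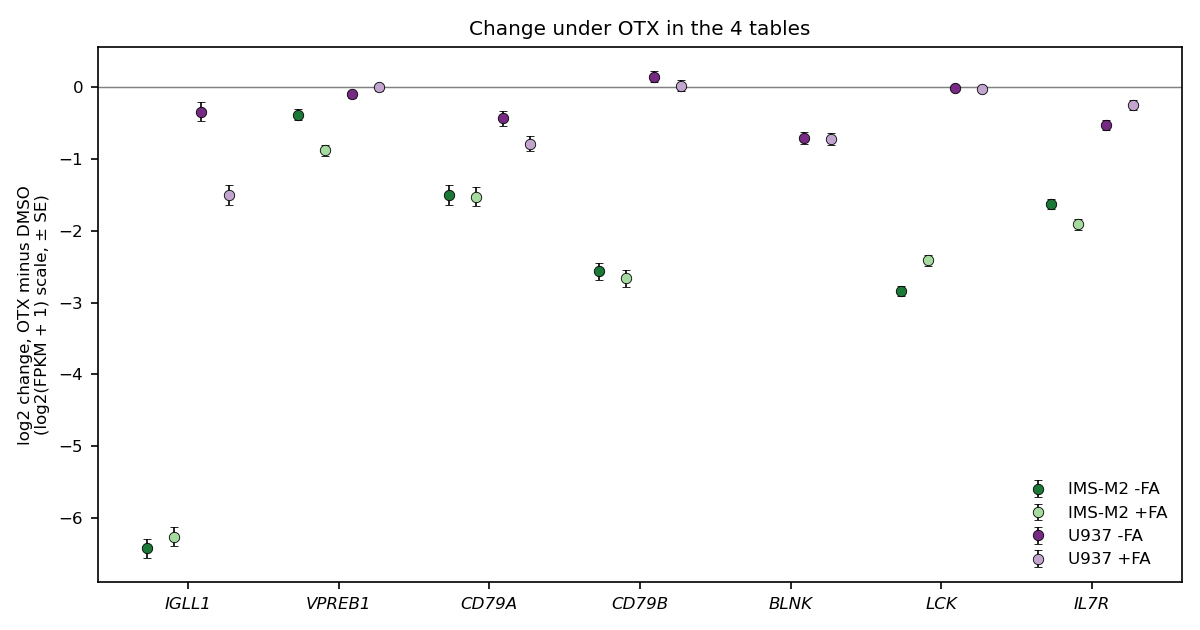
Log2 change under OTX (OTX minus DMSO, log2(FPKM + 1) scale) of each gene in the 4 tables, with SE bars from the fit without a filter; the IMS-M2 values are those the set was selected on. IGLL1 lies at -6.42 and -6.26 in IMS-M2, CD79A is below 0 in all 4 tables, and BLNK has no IMS-M2 point because it is listed at 0 there.

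In all, 5 of the 7 genes passed the filter in IMS-M2, where the set was selected, and 2 in U937. The median log2 change over all genes tested was between -0.03 and 0.02 in the 4 tables.

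Whether folic acid altered the OTX response was asked by subtracting the +FA change from the -FA change within a line. In IMS-M2 this uses the libraries that selected the genes, though in another contrast, and 3.61% of genes were called lower and 3.33% higher. For LCK the difference was -0.43 on the log2 scale (SE 0.11, limma adjusted p = 0.0391). LCK was selected on these libraries and passed the filter only through its DMSO groups, which also make this difference. Nothing is therefore read from the call. Its DMSO mean was 12.4 FPKM without folic acid and 9.26 FPKM with it, while its OTX libraries overlapped between the tables. The call was lost with a pseudocount of 0.1 FPKM (adjusted p = 0.0676), without the filter (adjusted p = 0.0627), with a filter of 5 FPKM (adjusted p = 0.0675) and in 10 of the 12 fits that left out 1 library. For the other 4 genes the difference was not called: -0.16 for IGLL1 (adjusted p = 0.561), 0.03 for CD79A (adjusted p = 0.931), 0.10 for CD79B (adjusted p = 0.708) and 0.28 for IL7R (adjusted p = 0.101). The IL7R difference passed with a pseudocount of 0.1 FPKM (adjusted p = 0.0387) and without the first IMS-M2 +FA DMSO library (adjusted p = 0.0393).

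In U937, 1.27% of genes were called lower and 0.741% higher in that difference. For IGLL1 the difference was 1.16 ± 0.20 (limma adjusted p = 0.0379). The gene entered the U937 fit only through its high +FA DMSO group, which also makes this difference, so nothing is read from the call. It missed the threshold with a pseudocount of 0.1 FPKM (adjusted p = 0.0538) and in 9 of 12 fits that left out 1 library. Its size rests on the DMSO level with folic acid, since the OTX libraries of both tables lay below 0.12 FPKM. CD79A gave 0.35 ± 0.14 (limma adjusted p = 0.113).

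Levels without and with folic acid come from separate tables and were only described. The share of all genes without overlap was not computed, so nothing is read from a lack of overlap. The U937 values of IL7R all lay under 1 FPKM. IL7R was higher without folic acid in every comparison, with no overlap between libraries: the -FA mean was 201% and 129% of the +FA mean in IMS-M2 OTX and DMSO cells, and 258% and 240% in U937 OTX and DMSO cells. IGLL1 was lower without folic acid in 3 of the 4, at 44.3% in IMS-M2 OTX, 74.0% in IMS-M2 DMSO and 17.0% in U937 DMSO. LCK was higher without folic acid in IMS-M2 DMSO cells, at 134%, where VPREB1 (36.6%) and CD79B (79.3%) were lower, all without overlap. CD79A differed only in U937 DMSO cells, at 71.9%, and BLNK overlapped in all comparisons.

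Genes of the surrounding pathways moved in both directions. The 5 lists were chosen with earlier results of these data known, so their shares are a description and not independent support. Across 5 gene lists, 111 genes other than the 7 were tested in IMS-M2: 33 were higher and 56 lower without folic acid, and 35 higher and 57 lower with it. In U937, 38 of 103 were higher and 34 lower without folic acid, and 45 higher and 25 lower with it. In percent of the list genes tested, 29.7 higher and 50.5 lower in IMS-M2 -FA stand beside 27.5 and 30.0 over all genes, 31.5 and 51.4 in IMS-M2 +FA beside 29.8 and 33.4, 36.9 and 33.0 in U937 -FA beside 28.0 and 31.7, and 43.7 and 24.3 in U937 +FA beside 29.1 and 27.0. The shares higher in IMS-M2 and lower in U937 are thus near those of all genes. Genes that reached 1 FPKM in 1 treatment alone, such as PTPN22, ZAP70 and MZB1 in IMS-M2 or PAX5 in U937 (DMSO) and PAG1 in IMS-M2 (OTX), were tested only because of that group, so a difference was favoured by their entry. Over the list genes tested, median log2 changes were -0.25 and -0.22 in IMS-M2 and 0.02 and 0.15 in U937. For the difference between folic acid conditions, where 3.33% of all genes were higher and 3.61% lower in IMS-M2 and 0.741% and 1.27% in U937, 11 list genes were higher and 8 lower in IMS-M2, and in U937 limma called 0 higher and 5 lower, against 13 and 25 at an unadjusted p under 0.05. The U937 count ranged from 0 (without the second +FA DMSO library) to 25 (without -FA DMSO column 1), and the IMS-M2 count from 4 (without the first -FA OTX library) to 37 (without the first +FA DMSO library).

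Among pre-B and B cell receptor signalling genes in IMS-M2, 17 of 31 fell and 7 rose without folic acid, and 18 fell and 9 rose with it. The shares higher were 22.6% and 29.0%, against 27.5% and 29.8% of all genes, and the shares lower 54.8% and 58.1%, against 30.0% and 33.4%. RASGRP3, an activator of RAS, fell to 3.44 ± 0.208 FPKM under OTX, against 21.5 ± 0.747 under DMSO, without folic acid (SD, n = 3; log2 -2.34, limma adjusted p = 8.76e-11). The adaptor LAT2 fell by 2.60 and the kinase BTK by 2.13 in the same table. MALT1, which links the receptor to NF-kB, rose by 0.39. In U937, 12 of 29 rose and 6 fell without folic acid, and 13 rose and 4 fell with it, which is 41.4% and 44.8% higher, against 28.0% and 29.1% of all genes, and 20.7% and 13.8% lower, against 31.7% and 27.0%. BTK fell there too, to 33.9 ± 1.01 FPKM under OTX, against 69.5 ± 6.45 under DMSO, without folic acid, while FYN, a relative of LCK, rose by 1.38. DAPP1, an adaptor of B cells, fell by 0.92.

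Around LCK, 13 of 20 T cell receptor and LCK signalling genes fell in IMS-M2 in both tables (65.0%, against 30.0% and 33.4% of all genes) and 5 rose (25.0%, against 27.5% and 29.8%). PTPN22, a phosphatase that acts on LCK, fell to 0.575 ± 0.103 FPKM under OTX, against 5.33 ± 0.322 under DMSO, without folic acid. It also fell in U937 without folic acid, to 1.10 ± 0.181 FPKM under OTX, against 10.7 ± 0.606 under DMSO (log2 -2.48, limma adjusted p = 1.41e-08). The phosphatase PTPN6 fell by 1.71 in IMS-M2 -FA, and ZAP70, the kinase that acts after LCK, fell by 1.997 in IMS-M2 +FA. PAG1, the membrane adaptor that recruits the LCK inhibitor CSK, rose in all 4 tables, by 1.33 and 1.18 in IMS-M2 and by 1.15 and 1.28 in U937 without and with folic acid. UNC119, which binds SRC family kinases, rose by 0.60 and 0.92 in IMS-M2. In U937, 7 of 16 rose and 6 fell without folic acid, and 8 rose and 6 fell with it, beside 28.0% and 29.1% of all genes higher and 31.7% and 27.0% lower.

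In the list of IL7 and TSLP receptor signalling, more genes rose than fell in IMS-M2, where IL7R itself was lower. There, 15 of 24 genes rose and 4 fell without folic acid, and 16 rose and 3 fell with it. That is 62.5% and 66.7% higher, against 27.5% and 29.8% of all genes, and 16.7% and 12.5% lower, against 30.0% and 33.4%. The kinase gene PIM2, a STAT5 target, reached 134 ± 12.4 FPKM under OTX, against 29.5 ± 0.813 under DMSO, and the cyclin CCND3 reached 377 ± 33.9 FPKM, against 133.6 ± 9.56, in IMS-M2 -FA. SOCS3, a feedback inhibitor, rose by 2.08 in IMS-M2 +FA. IL2RG, the common gamma chain that pairs with IL7R, fell by 1.11 and 1.32 without and with folic acid. In U937, 11 of 23 rose in each table (47.8%, against 28.0% and 29.1% of all genes), and 6 fell without folic acid and 4 with it, among them the cyclin CCND2 at -1.51 and -1.61 and STAT5A at -0.72 and -0.62. JAK1, the kinase bound to IL7R, rose by 1.04 and 1.07.

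Among early lymphoid transcription factors and recombination genes in IMS-M2, 13 of 28 fell in both tables, and 8 rose without folic acid and 7 with it. The 46.4% lower stands beside 30.0% and 33.4% of all genes, and the 28.6% and 25.0% higher beside 27.5% and 29.8%. SPI1 (PU.1), which is needed for both B cell and myeloid fates, fell to 19.0 ± 1.35 FPKM under OTX, against 87.9 ± 6.61 under DMSO, without folic acid. ID3, an inhibitor of E proteins, fell by 1.75 and ERG by 1.36, while ETS1 rose by 1.56, RUNX1 by 1.26 and ID1 by 1.41. In U937, 9 of 28 rose and 10 fell without folic acid, and 14 rose and 5 fell with it. Without folic acid these shares, 32.1% and 35.7%, are near the 28.0% and 31.7% of all genes. ID2, another E protein inhibitor, rose by 2.52 and 2.51, whereas IRF8 fell by 1.58 without folic acid and fell by 1.995 with it, and PAX5, the B lineage commitment factor, fell by 0.75 and fell by 0.57. PAX5 stood at 0.274 ± 0.0562 FPKM under OTX, against 1.15 ± 0.0699 under DMSO, without folic acid, and so entered the fit only through its DMSO groups.

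Of 35 other B lineage surface and secreted genes in the tables, 16 passed the filter in IMS-M2. Without folic acid 14 of these 16 fell and 1 rose, and with it 15 fell and limma called 0 higher, also at an unadjusted p under 0.05. The shares lower are 87.5% and 93.8%, against 30.0% and 33.4% of all genes. They are a description, since the list was chosen with earlier results of these data known. The median log2 change was -0.97 and -1.31, against -0.01 and -0.03 over all genes tested. CD34, a progenitor marker, fell to 2.39 ± 0.366 FPKM under OTX, against 14.96 ± 1.65 under DMSO, without folic acid. MZB1, a chaperone of antibody-secreting cells, fell by 1.86 and had entered the fit only through its DMSO groups. CXCR4 was the gene that rose, by 0.41, and its call was lost without the second -FA DMSO library (adjusted p = 0.0531). In U937, 7 of 15 fell in each table (46.7%, against 31.7% and 27.0% of all genes), and 2 rose without folic acid and 4 with it. FCER2 (CD23) fell to 8.56 ± 1.27 FPKM under OTX, against 58.2 ± 5.66 under DMSO, without folic acid. The myeloid marker sums given above fell in the same libraries, and several genes of this list, CD34 among them, are also carried by myeloid progenitors.

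**Figure D4:**
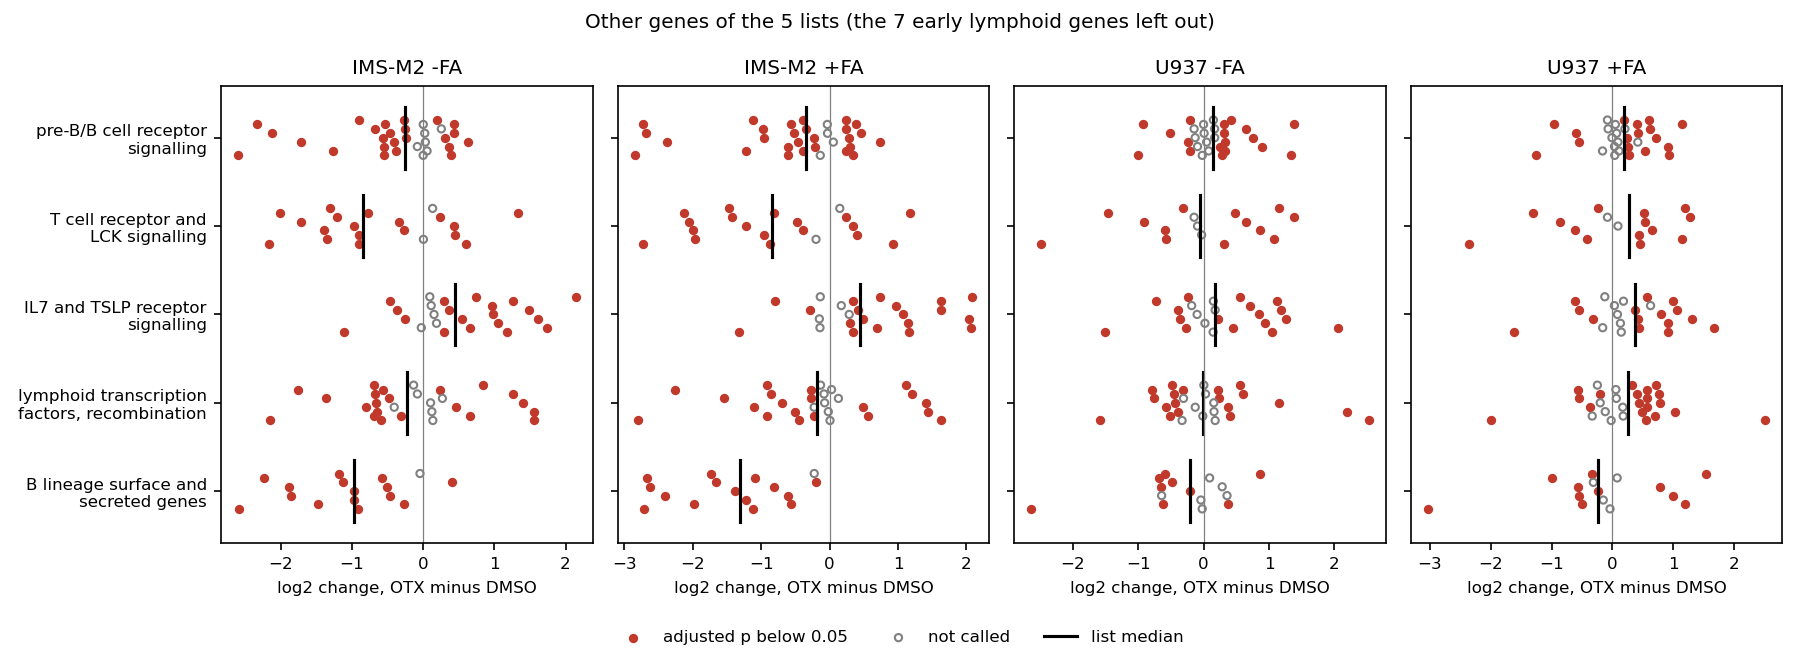
Each point is 1 gene of a list (rows), with its log2 change under OTX (OTX minus DMSO) on the horizontal axis in the 4 tables; filled points passed an adjusted p of 0.05, open ones did not, and the black line is the list median. The B lineage surface list has medians of -0.97 and -1.31 in IMS-M2, while the IL7 and TSLP list has medians of 0.45 in both IMS-M2 tables.

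The genome around the 7 genes was then examined. At loci within 250 kb of any of them, 84 genes were listed. Some neighbours carry the same distance, such as SMARCB1 and DERL3 at 207 kb. A distance can thus be that of a shared locus, and a gene itself may lie farther away. Of 45 tested in IMS-M2, 16 were higher and 7 lower without folic acid, and 14 higher and 15 lower with it. Of 44 tested in U937, 6 were higher and 13 lower without folic acid, and 11 higher and 13 lower with it. Over all genes tested, 27.5% were higher and 30.0% lower in IMS-M2 -FA, 29.8% and 33.4% in IMS-M2 +FA, 28.0% and 31.7% in U937 -FA, and 29.1% and 27.0% in U937 +FA. Neighbours called with a fall of a log2 of 1 or more numbered 2 and 3 in IMS-M2 and 3 and 2 in U937, without and with folic acid. The share of all genes at this cut was not computed. Near IGLL1 (hg19 chromosome 22, 23915312 to 23922495), DERL3 was listed at a locus 207 kb away. It fell in IMS-M2 to 1.51 FPKM under OTX, against 7.26 under DMSO, without folic acid, and to 1.34 against 8.02 with it. CHCHD10, listed at a locus 183 kb away, fell by 0.69 and 1.27 in IMS-M2. In U937, DERL3 fell by 1.33 and 1.64 and CHCHD10 by 1.32 and 0.95, without and with folic acid. Near LCK (hg19 chromosome 1, 32716839 to 32751766), CCDC28B, 45.9 kb away, fell in IMS-M2 to 9.13 FPKM under OTX, against 19.6 under DMSO, without folic acid, and to 7.32 against 16.01 with it. CCDC28B also fell in U937, by 0.94 and 1.075. No tested neighbour of CD79A, CD79B, VPREB1, BLNK or IL7R fell by a log2 of 1 or more in IMS-M2. These genes had 6, 13, 2, 4 and 1 tested neighbours there, in that order, so few were tested near VPREB1, BLNK and IL7R.

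**Figure D5:**
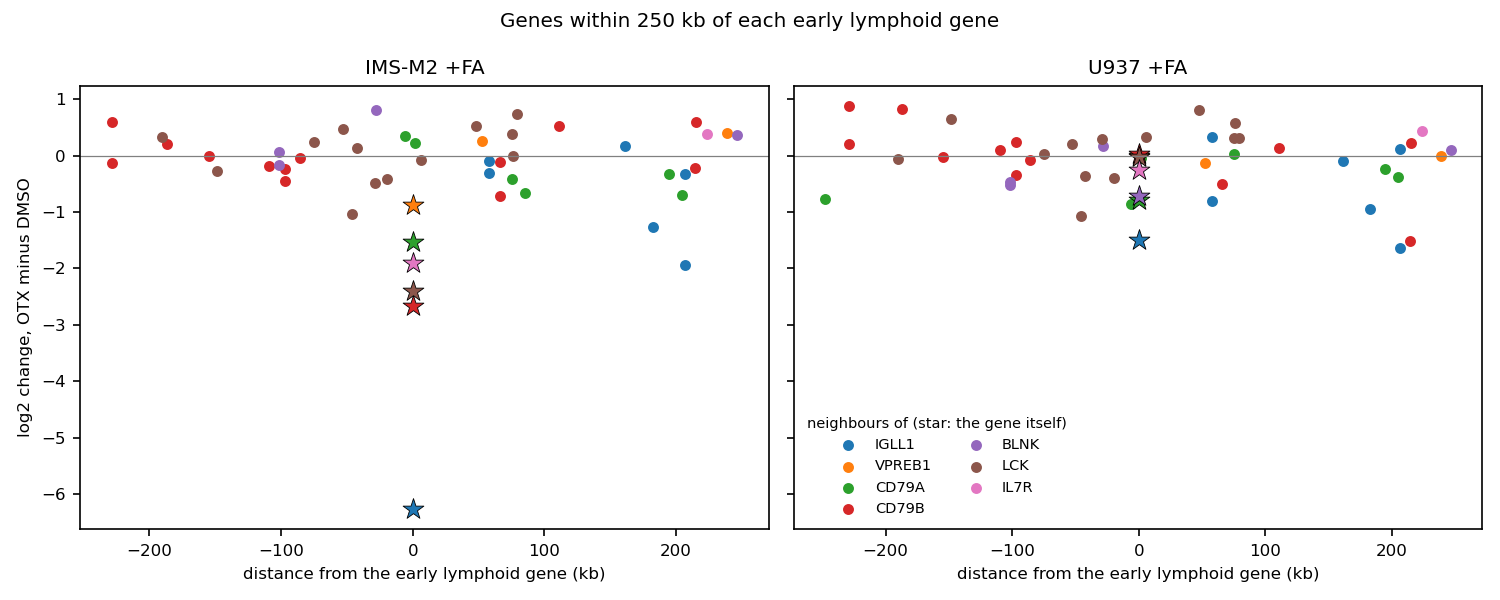
Log2 change under OTX (vertical axis, OTX minus DMSO) of the genes listed within 250 kb of each of the 7 genes. The horizontal axis gives the distance of the listed locus in kb, negative towards lower coordinates. Values are with folic acid, in IMS-M2 (left) and U937 (right), and stars mark the 7 genes themselves. The IMS-M2 star of IGLL1 at -6.26 lies far below all its neighbours, of which 2 lie at or below -1.

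Genes with the most similar pattern were found by Pearson correlation of log2(FPKM + 1) over the 8 group means, among 9670 genes, for the 5 genes that reached 5 FPKM. The 8 means include 2 lines and 2 treatments, so any gene that is high in IMS-M2 and lower under OTX scores well. For IGLL1 the closest included LIMS2 (r = 0.9916), NRXN2, TM4SF18 and TNFSF8, the last at 0.986. NRXN2 averaged 1.19 FPKM under OTX and 51.0 FPKM under DMSO in IMS-M2 -FA, and 1.17 and 38.7 FPKM in IMS-M2 +FA. LIMS2 averaged 0.760 FPKM under OTX and 15.5 FPKM under DMSO in IMS-M2 -FA. For CD79B they were GPR174 (r = 0.9996), PRKCH, NDRG2, FAM198B and GIMAP7. For LCK they were SMPDL3B (r = 0.9965), COL5A1, ANGPTL6, S100Z and SELP, and SELP (P-selectin) averaged 3.68 FPKM under OTX and 71.7 FPKM under DMSO in IMS-M2 -FA. For IL7R they were PRICKLE1 (r = 0.9942), RASGRP3, GPR85, NCR3 and SLAMF6. For CD79A they were SYTL1 (r = 0.9905), BTN3A1, CMAHP, NSD1 and THTPA. No gene given appeared under more than 1 of the 5. Between pairs of the 5 genes themselves r was 0.913 (IGLL1 and CD79B) to 0.975 (CD79B and LCK) over the same 8 means.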

How the data were processed

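The authors deposited 4 tables, 1 per line and folic acid condition, each with 6 libraries and 23595 genes. Per the labels' protocols, a Qiagen RNeasy Plus kit gave the RNA and TruSeq Stranded mRNA chemistry the libraries. Cuffdiff 2.2.1, TopHat2 2.1.1, bcl2fastq 2.17.1.14 and the build hg19 appear in the submitters' processing notes, without their roles. The deposited values were taken as FPKM from their fractional values and sums, since no header names the unit. Whether the tables shared a normalization is not given in the sources used here, so levels are tested only within a table or as differences of within-table changes. Read counts were not used here, the depth is unknown, and no counting interval was computed. FPKM is relative to the other transcripts of a library and is blind to the RNA content of a cell. A listed 0 can be a failed estimate. In the U937 -FA table columns are numbered from 0, so its libraries were assigned to groups only.

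Log2(FPKM + 1) values were fitted in R 4.3.3 by limma 3.58.1, with a group-means model over the 12 libraries of a line and eBayes with an intensity trend. A gene entered if any group of the line averaged 1 FPKM or more. The pseudocount understates the change of low genes. A call is a Benjamini-Hochberg adjusted p below 0.05 over all genes tested. The fit was also run on simulated data. That simulation used independent noise and far fewer changed genes than were called here, and its outcome is not used as support. The 7 genes, the 5 lists and the marker sets were chosen with earlier results of these data known. Named genes were the 7, HEXIM1, MYC, up to 3 called genes per list, direction and contrast with the smallest p, tested neighbours within 250 kb, and the 5 most alike genes of each gene reaching 5 FPKM; the text gives a selection of these, and some genes that the rule names are not reported here. The deviations of same-numbered libraries did not correlate above 0.1 in every pair, so the main fit did not treat the numbers as pairs. In IMS-M2 these correlations were mostly higher than those between different numbers, so a pairing there is possible. Alternatives were a pseudocount of 0.1 FPKM, no filter, a filter of 5 FPKM, rescaling by median ratios, 1 table at a time, no trend, a replicate block and leaving out each library.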

Additional observations from a re-analysis of the deposited data

Results flagged for a closer look

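Differences between groups were of 2 kinds. The first is a difference of the OTX change without folic acid from that with it, in the limma fit. In IMS-M2 it was -0.43 for LCK. Among the genes of the lists given here it was positive, a less negative or more positive change without folic acid, for CD53 (1.49), PTPN6 (1.01), MZB1 (0.76), CD3E (0.76), CD74 (0.76), CD72 (0.66), SPI1 (0.65) and ZAP70 (0.60). It was negative for SOCS1 (-0.98), BCL10 (-0.74), BCL2 (-0.66), HHEX (-0.58), SOCS2 (-0.54), BCL11A (-0.41) and GRB2 (-0.38). In U937 it was 1.16 for IGLL1, which entered the fit only through its +FA DMSO group, -0.63 for CD38, -0.62 for PRKCB, -0.55 for NOTCH1, -0.54 for RUNX1 and -0.52 for GFI1. Most of these calls depend on single libraries, as given below. MZB1, CD3E and ZAP70 entered the IMS-M2 fit only through their DMSO groups. Their OTX means were 0.223 FPKM or less in both tables. Their DMSO means were lower without folic acid, at 2.87 against 6.56, 1.505 against 3.265 and 1.96 against 3.62 FPKM. Their positive differences thus rest on the DMSO level. LCK also entered only through its DMSO groups, and its OTX libraries overlapped between folic acid conditions.

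The second kind is a list gene whose OTX libraries all lay on one side of the DMSO libraries in U937 and on the other side in IMS-M2, with a call in both lines. The difference between the lines was not tested. Without folic acid the U937 and IMS-M2 log2 changes were 0.37 and -1.13 for CD38, -0.39 and 0.54 for CISH, 0.61 and -1.75 for ID3, 0.22 and -1.11 for IL2RG, 0.66 and -0.53 for INPP5D, -0.26 and 2.14 for PIM2, 0.87 and -0.97 for PTPRC, and 0.32 and -0.27 for SYK. With folic acid they were 0.9997 and -1.09 for CD38, 1.53 and -2.67 for CD53, 0.79 and -2.25 for ID3, 0.93 and -0.52 for INPP5D, -0.32 and 2.06 for PIM2, 1.201 and -1.23 for PTPRC, and 0.54 and -0.39 for SYK.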

How the results depend on the processing

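The OTX calls of CD79A in both U937 tables held under every alternative that fitted the gene. The direction of every OTX change of the 7 genes that passed the filter held likewise, where the gene was fitted. In U937 the filter of 5 FPKM removed CD79A and IGLL1, whose highest group means were 4.11 and 2.01 FPKM. The replicate block did not cover U937 -FA, and fitting the U937 -FA table alone left out IGLL1. In IMS-M2, a pseudocount of 0.1 FPKM gave larger log2 changes, -7.58 and -6.92 for IGLL1 and -3.69 and -3.18 for LCK without and with folic acid. Of 4133 values of single genes in the OTX contrasts under alternatives, 4015 kept their direction and call, 110 lost the call and 8 moved; in the folic acid differences 174 of 388 lost the call.

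The folic acid differences were the unstable part. In IMS-M2 the count of called genes was 779; it was 445 without the filter, 1920 with a replicate block, and 82 to 3429 without 1 library. Same-number correlations of the deviations were 0.0534 to 0.276 in IMS-M2, all positive, against -0.181 to 0.0673 between different numbers. In U937 +FA they were -0.335 to 0.128, against -0.319 to 0.497. Pairing by number is thus possible in IMS-M2, where the main fit left it out, and is not established in U937 +FA. The count of list genes was 19, and 30 with the replicate block, and 4 to 37 without 1 library. In U937 the count was 225; it was 31 with the smaller pseudocount, 128 without the filter, and 1 to 2704 without 1 library. The list count there was 5, and 1, 2 and 3 with the smaller pseudocount, without the filter and after rescaling, and 0 to 25 without 1 library.

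For single genes, the LCK difference in IMS-M2 was -0.50 with the smaller pseudocount (adjusted p = 0.0676), -0.43 without the filter (adjusted p = 0.0627), -0.43 with a filter of 5 FPKM (adjusted p = 0.0675), and -0.47 to -0.38 without 1 library. The IL7R difference was 0.59 with the smaller pseudocount and 0.22 to 0.32 without 1 library. The uncalled CD79A difference turned to -0.0034 after rescaling and ranged from -0.12 to 0.10 without 1 library, and that of CD79B from -0.030 to 0.20. The IGLL1 difference in U937 was 2.43 with the smaller pseudocount (adjusted p = 0.0538) and 1.04 to 1.32 without 1 library. The IGLL1 change in U937 -FA was -1.42 with the smaller pseudocount (adjusted p = 0.0121) and -0.46 to -0.23 without 1 library. The cause was not tested. Unknown depth limits VPREB1, BLNK and the U937 values of IL7R, LCK and CD79B, which lie under 1 FPKM.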
